A study of Mus musculus with 5 samples.

Results

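The 10 genes of neuronal migration described here were followed through the 4 brain regions of the series: the doublecortin family (Dcx, Dclk1, Dclk2 and Dclk3), reelin with its receptors and adaptor (Reln, Lrp8, Vldlr and Dab1), and the secreted factor Prok2 with its receptor Prokr2. They were taken by symbol from the RefSeq entries of the deposited expression table, which gave 10 genes with 29 transcripts of 20340 coding genes with 25975 transcripts. The tissue was dissected from C57BL/6 mice that were adult, male and wild type, and no allele, treatment or reporter was named for any group. The subventricular zone (SVZ), the stem cell layer along the lateral ventricle, had 2 samples labelled as biological replicates. The olfactory bulb (OB), the dentate gyrus (DG) and the striatum (STR), which the design text names as the control tissue without neurogenesis, had 1 sample each. The number of animals behind each sample was not stated in the labels. Values are FPKM, the fragments assigned to a transcript per kilobase of its length, relative to all mapped fragments, summed over the transcripts of a gene. They carry no read counts, so the depth is unknown. In whole tissue, fewer cells of a type and less RNA per cell cannot be told apart.

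Young neurons born in the adult SVZ travel along the rostral migratory stream to the olfactory bulb, whereas those of the dentate gyrus settle close to where they were born. Doublecortin proteins bind and stabilise microtubules in such cells. Reelin is a large secreted glycoprotein that binds the lipoprotein receptors encoded by Lrp8 and Vldlr, which leads to phosphorylation of the intracellular adaptor encoded by Dab1 and positions neurons at the end of their journey. Prokineticin 2 is a secreted attractant for SVZ neuroblasts, and loss of its receptor Prokr2 leaves the olfactory bulb small.

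The dissections carried the markers of their labels. The summed level of 8 striatal projection neuron markers was 3839 FPKM in STR, 297 in OB and 67.8 in DG, and also 4697 and 3702 in the SVZ samples. All 5 ependymal markers, which belong to the ventricle wall, were higher in both SVZ samples than in STR, with sums of 284 and 112 against 5.34 FPKM. The 6 dentate granule neuron markers summed to 761 FPKM in DG and to between 14.2 and 128 elsewhere. The 5 libraries fell into 2 sets that cut across the regions: Gapdh was at 32.4 FPKM in SVZ sample 2 and 39.5 in STR, against 414 to 563 in SVZ sample 1, OB and DG. Each difference between regions is therefore also given within a set (SVZ sample 1, OB and DG; SVZ sample 2 and STR), or, for OB and DG against STR, joined through the SVZ samples. Of 14029 coding genes that reached 1 FPKM anywhere, 52.6% had sets that did not overlap. Of the 10 genes here, 3 did: Dclk2 and Lrp8 were higher in SVZ sample 1, OB and DG, and Vldlr in SVZ sample 2 and STR.

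**Figure D1:**
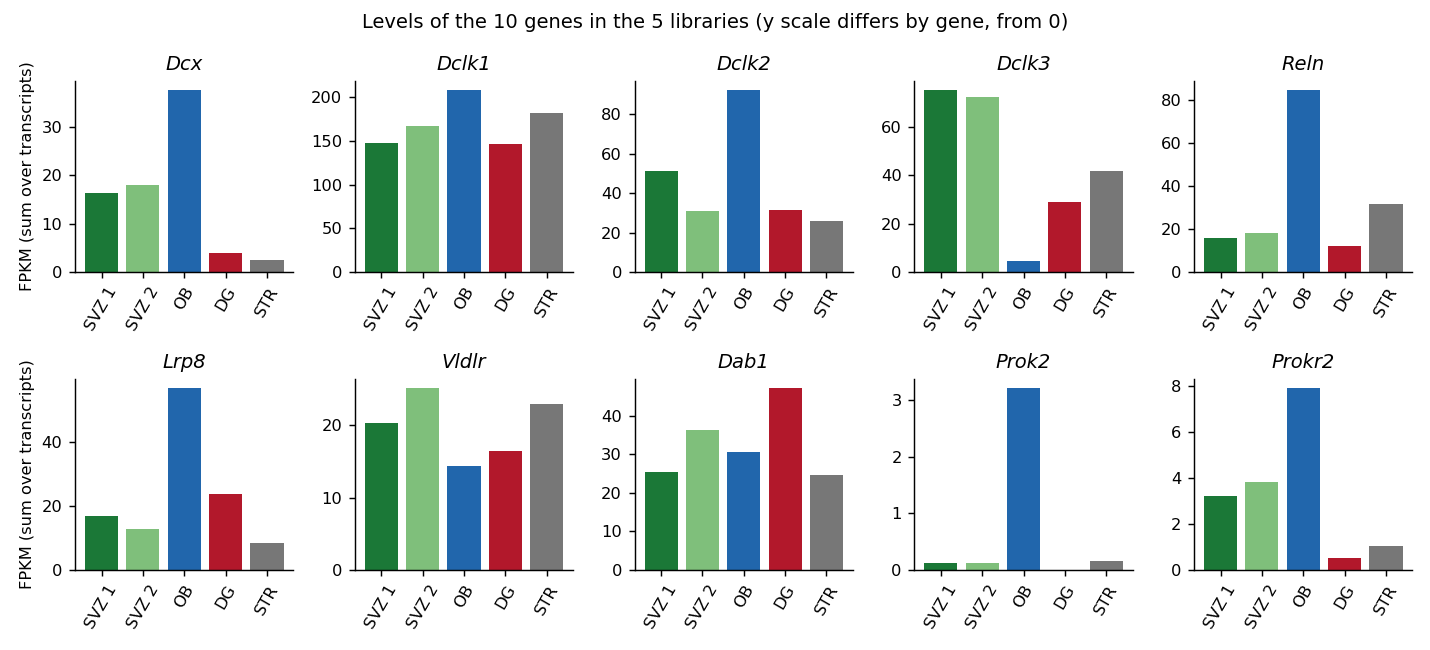
Level of each of the 10 genes in the 5 libraries, as FPKM summed over transcripts, with 1 bar per library and a y axis from 0 whose scale differs by gene. Dcx, Dclk2, Reln, Lrp8, Prok2 and Prokr2 had their highest bar in OB, where Dclk3 and Vldlr had their lowest, and Prok2 was listed at 0 in DG.

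The 10 genes spanned a wide range. Dclk1 was the most abundant in every library, above 97.7% to 98.8% of coding genes, and Prok2 the least. A group of 6 (Dcx, Dclk2, Reln, Lrp8, Prok2 and Prokr2) were highest in OB, and Dclk1 was too, though by less than the error. Dclk3 was highest in the SVZ and lowest in OB. On the scale of log2(FPKM + 1), 6 pairs of regions were compared in limma. Its standard errors (SE) start from the single replicated region, the SVZ, with 1 residual degree of freedom. Limma then draws each gene's spread towards a trend shared by all genes fitted, so an SE is not that gene's own replicate spread. The SVZ samples differed little in Dcx (standard deviation 0.09 log2 units), yet its SE in SVZ minus STR was 0.40. The SVZ samples lay in different library sets, and the fit had no term for the set. Each SE and p-value therefore mixes the difference between sets with the spread between replicates, also for pairs within a set such as OB minus DG. Among all genes tested the limma adjusted p-value was under 0.05 for 0 genes in each of the 6 pairs (0% of 14878 to 15941 genes), while between 734 and 2226 genes had an unadjusted p-value under that value. A limma fit without the trend also called 0. With no filter on low values limma called between 91 and 1045 genes in 5 pairs, and with a filter at 5 FPKM between 6 and 66 in 4 pairs. Differences are therefore described by size, with 1 log2 unit or more called apart, beside the share of all coding genes that lay as far apart.

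Dcx encodes doublecortin, the microtubule protein of migrating neuroblasts, and lies at chrX:140290385-140367762 on the minus strand of mm9. Its level was 16.3 and 18.0 FPKM in the SVZ pair, 37.5 in OB, 3.90 in DG and 2.54 in STR. Both SVZ samples and OB thus lay above DG and STR with no overlap. On the log2 scale Dcx was higher in the SVZ than in STR by 2.36 ± 0.40 (SE), and by 2.42 between SVZ sample 2 and STR alone. Against DG the SVZ excess was 1.88 ± 0.40 (limma unadjusted p = 0.0132, adjusted p = 0.224), and OB exceeded the SVZ by 1.09 ± 0.40. That last gap fell to 0.82 after scaling the libraries to a common median ratio. Between DG and STR the gap was 0.47 ± 0.46, about the size of its SE, although the dentate gyrus is a site of adult neurogenesis and the striatum was taken as one without. The 4 deposited Dcx transcripts differ by at most a few codons (360 to 366), so their separate values are uncertain. The 10 neuroblast markers, none listed at 0, summed to 777 and 591 FPKM in the SVZ samples, 1717 in OB, 381 in DG and 433 in STR. Tubb3 and Gad1, which mature neurons also express, made up most of that sum. Gene by gene, 7 of the 10 were higher in the SVZ than in STR by 1 log2 unit or more, beside 7% of coding genes. The median was 2.50, against 0.24 over coding genes. Among the higher markers, Dlx2, Igfbpl1 and Sp8 were at 0.478, 0.503 and 0.0186 FPKM in STR. They reached 1 FPKM in that pair only through the SVZ. In DG against STR 3 of 9 tested were higher and 1 lower, beside 17.5% and 8.28% of coding genes. The median was 0.68 against 0.26. Igfbpl1 was among the higher genes, at 6.65 against 0.503 FPKM, and reached 1 FPKM there only through DG. The part of neuroblasts in the level of Dcx was not tested.

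Dclk1 encodes doublecortin-like kinase 1, whose longest form joins a pair of doublecortin domains to a kinase domain, and lies at chr3:55046448-55342990 on the plus strand of mm9. Its summed level was nearly level across the brain: 147 and 167 FPKM in the SVZ samples, 208 in OB, 147 in DG and 182 in STR. No pair differed by more than 0.50 ± 0.54, and the sign of OB minus STR turned from 0.19 to -0.35 after median ratio scaling. Beneath that flat sum the transcripts divided by start site. Of its 7 RefSeq transcripts, 3 begin at an upstream start and carry 940 coding bases ahead of the internal start, the part that encodes the doublecortin domains. The other 4 begin 219364 bases downstream, measured on the GRCm38 annotation, and encode the kinase alone or a short peptide. The split was made after the transcript values had been seen.

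Transcripts from the upstream Dclk1 start summed to 28.4 and 18.7 FPKM in the SVZ samples, 95.4 in OB, 56.8 in DG and 20.4 in STR. OB and DG were the high libraries. SVZ sample 1 lay above STR and SVZ sample 2 below it, so the library sets did not overlap either. The upstream start made up 45.8% of Dclk1 FPKM in OB and 38.6% in DG, against 19.3% and 11.2% in the SVZ samples and 11.2% in STR. As the split was made with these values seen, the sizes that follow are a description. On the log2 scale OB exceeded STR by 2.17 ± 0.54, and the SVZ by 2.00 ± 0.47. DG exceeded STR by 1.43 ± 0.54, and the SVZ by 1.26 ± 0.47. Within 1 library set the excess over SVZ sample 1 was 1.71 for OB and 0.97 for DG, and SVZ sample 2 and STR differed by 0.12. The internal start ran the other way in size: 119 and 148 FPKM in the SVZ, 113 in OB, 90.3 in DG and 162 in STR, with OB minus STR at -0.51 ± 0.53. Its library sets did not overlap, with SVZ sample 2 and STR the higher, so region and set cannot be told apart there. Within 1 library set the difference from SVZ sample 1 was -0.07 for OB and -0.39 for DG.

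Within the upstream group the transcripts differed. NM_001111053, a form of 363 codons that ends before the kinase, was at 4.56 FPKM in OB and 0.406 in DG and listed at 0 in the other 3. The transcript NM_001195538 (739 codons) was listed at 43.0 FPKM in OB and 40.0 in DG, and at 0.00271, 0 and 0 in SVZ sample 1, SVZ sample 2 and STR. Its sister NM_019978 (756 codons) was present throughout, at 28.4 and 18.7 in the SVZ, 47.9 in OB, 16.3 in DG and 20.4 in STR. The kinase form NM_001111052 (422 codons) was the most abundant in every library, between 52.1 in DG and 107 in STR. NM_001195540, a form of 56 codons, was at 22.1 and 37.8 in the SVZ, 23.7 in OB, 26.0 in DG and 29.5 in STR. Values of transcripts that share most of their bases are estimates of how reads divide among them. For NM_001195540, NM_001111052 and NM_001195539 the library sets did not overlap, with SVZ sample 2 and STR the higher. OB and DG, the 2 libraries with a high upstream share, also had the highest sums of the 6 mitral and tufted cell markers, 782 and 863 FPKM against 25.7 to 47.1 in the other 3. Slc17a7, the vesicular glutamate transporter 1 of many excitatory neurons, made up most of both sums, at 453 and 752 FPKM. Of the other markers, Tbx21, Eomes and Cdhr1 were high in OB alone: in DG Tbx21 was at 0.290, Eomes at 1.53 and Cdhr1 at 8.28 FPKM. Tbr1 and Lhx2 were higher in DG, at 27.6 and 73.5 FPKM, than in OB, at 8.06 and 31.8. Tbx21 and Eomes were listed at 0 in STR, and the part of excitatory neurons in the Dclk1 division was not tested.

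The bases ahead of both starts are shown because the shares of the 2 starts differed between libraries. They are the 250 bases before each RefSeq start on GRCm38.p6, plus strand, at chr3:55242114-55242363 and chr3:55461478-55461727. Capitals mark ACAAT, the core that Sox factors bind, on either strand, beginning 213 and 80 bases before the start.
Dclk1 upstream start: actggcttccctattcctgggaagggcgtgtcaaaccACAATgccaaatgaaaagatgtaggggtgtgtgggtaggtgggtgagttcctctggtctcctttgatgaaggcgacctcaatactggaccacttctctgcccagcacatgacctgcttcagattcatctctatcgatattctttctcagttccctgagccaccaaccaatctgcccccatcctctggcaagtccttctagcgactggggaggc
Dclk1 internal start: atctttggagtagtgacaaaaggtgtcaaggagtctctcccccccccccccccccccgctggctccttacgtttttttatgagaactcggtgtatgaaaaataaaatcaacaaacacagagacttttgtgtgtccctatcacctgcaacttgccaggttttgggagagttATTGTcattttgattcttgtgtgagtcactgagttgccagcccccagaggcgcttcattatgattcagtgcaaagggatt
Both stretches hold 4 CpG dinucleotides, against a median of 6 over 32851 RefSeq promoters of that length. Neither held the motifs searched in other promoters below. ACAAT occurs in 27.7% of all those promoters, so its presence in both distinguishes neither.

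**Figure D2:**
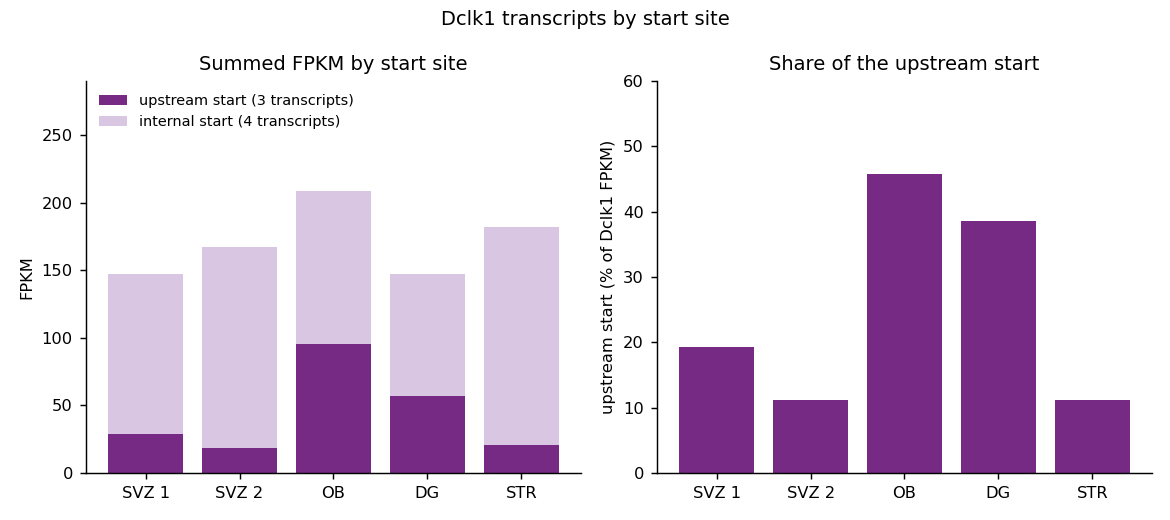
Dclk1 FPKM in the 5 libraries, stacked by start site (left), and the upstream start as a percentage of Dclk1 FPKM (right). The upstream share was 45.8% in OB and 38.6% in DG and between 11.2% and 19.3% in the SVZ samples and STR.

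Dclk2, a second kinase with doublecortin domains (chr3:86590072-86724806, minus strand, mm9), was at 51.1 and 30.7 FPKM in SVZ samples 1 and 2, 92.1 in OB, 31.2 in DG and 26.1 in STR. OB was the highest, and SVZ sample 2, DG and STR lay close together. OB exceeded STR by 1.78 ± 0.59 on the log2 scale, but by 1.07 once joined through the SVZ samples, since the SVZ pair itself split by library set. The excess of OB over the SVZ, 1.20 ± 0.51, came to 0.84 against SVZ sample 1 alone. Of its 6 forms, 4 had library sets that did not overlap, beside 51.9% of all RefSeq transcripts that reached 1 FPKM in a library. The most abundant, NM_001195496, was at 58.6 FPKM in OB, 25.4 in DG and 23.6 in SVZ sample 1, against 13.5 in SVZ sample 2 and 13.8 in STR. NM_001195498 was at 16.4, 4.04 and 4.85 in the same order, against 0 and 0. NM_027539 was at 5.82, 8.28 and 0.905 in SVZ sample 1, OB and DG against 0.146 and 0.0215 in SVZ sample 2 and STR. NM_001195500, which ends early, was the reverse, at 4.05 and 3.49 in SVZ sample 2 and STR and between 0.387 and 0.860 in the other 3 libraries.

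Unlike Dcx and Dclk2, which were highest in OB, Dclk3, a kinase of the family (chr9:111341585-111392115, plus strand, mm9), was lowest there. It was at 75.1 and 72.1 FPKM in the SVZ pair, 4.68 in OB, 28.9 in DG and 41.7 in STR. The OB value was 16.1-fold below the highest, and every other library lay well above it. The SVZ exceeded OB by 3.72 ± 0.38 on the log2 scale (limma unadjusted p = 0.00134, adjusted p = 0.151), and by 3.74 within the set. OB lay below STR by 2.91 ± 0.44 and below DG by 2.40 ± 0.44. Between the SVZ and STR the gap was 0.81 ± 0.38, under 1 log2 unit. The 8 striatal projection neuron markers, with the sums given above, were also lowest in OB and DG, and their part in the level of Dclk3 was not tested. In DG those markers were lower than in OB, whereas Dclk3 was higher.

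Reln encodes reelin, which is made in the adult by Cajal-Retzius cells, many cortical and hippocampal interneurons, and mitral and tufted cells of the bulb. It lies at chr5:21390272-21850523 on the minus strand of mm9 and had 1 transcript of 3461 codons. Its level was 15.8 and 18.1 FPKM in the SVZ samples, 84.6 in OB, 12.2 in DG and 31.8 in STR. OB was the highest and STR came next, above both SVZ samples. The log2 excess of OB was 2.70 ± 0.45 over DG, 2.26 ± 0.39 over the SVZ (2.35 within the set) and 1.39 ± 0.45 over STR. That over STR was 0.85 after median ratio scaling, whereas the shortfall of the SVZ against STR, 0.87 ± 0.39, came to 1.13. DG lay below STR by 1.31 ± 0.45. Of the mitral and tufted markers, Eomes was at 50.2 FPKM in OB and at most 1.53 elsewhere, Tbx21 at 23.8 and at most 0.290, and Cdhr1 at 216 and at most 8.28. The other 3, Slc17a7, Tbr1 and Lhx2, were highest in DG. Of 6 Cajal-Retzius markers 5 were in the table, and Calb2, which bulb interneurons also express, made up nearly all of their OB sum of 660 FPKM. Meningeal fibroblast markers summed to 2265 FPKM in OB and to between 160 and 291 elsewhere. The part of any of these cells in the Reln level was not tested.

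Lrp8 encodes the reelin receptor also known as ApoER2 (chr4:107474864-107549445, plus strand, mm9). It was at 16.9 and 12.7 FPKM in SVZ samples 1 and 2, 56.8 in OB, 23.5 in DG and 8.35 in STR, so that OB was the highest and STR the lowest. OB exceeded STR by 2.63 ± 0.49 on the log2 scale (2.24 joined through the SVZ), the SVZ by 1.89 ± 0.42 and DG by 1.24 ± 0.49. Over STR, the DG excess of 1.39 ± 0.49 came to 1.00 when joined through the SVZ, just short of 1 log2 unit. A noncoding RefSeq transcript, NR_033496, carried 29.3 FPKM of the OB value, 4.84 and 0.279 of the SVZ values, 6.41 in DG and 0.715 in STR. It overlaps the coding transcript, so the division between them is uncertain. The coding transcript alone was at 12.1 and 12.4 in the SVZ, 27.5 in OB, 17.1 in DG and 7.64 in STR. Its OB excess was 1.72 ± 0.45 over STR and 0.66 ± 0.45 over DG, so without the noncoding transcript the gap between OB and DG was under 1 log2 unit.

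Vldlr, the other reelin receptor (chr19:27291510-27328721, plus strand, mm9), was at 20.4 and 25.2 FPKM in the SVZ pair, 14.4 in OB, 16.4 in DG and 23.0 in STR. It was lowest where Reln and Lrp8 were highest, but the largest gap, 0.63 ± 0.47 between OB and STR, was under 1 log2 unit. After median ratio scaling that gap was 1.15, and joined through the SVZ it was 0.34. The form with 18 exons (845 codons) made up 85.3% to 100% of its FPKM, and the form with 19 exons (873 codons) was listed at 0 in DG and between 1.33 and 2.50 elsewhere. Per length, then, summed Lrp8 exceeded Vldlr in OB and DG, and Vldlr exceeded Lrp8 in the SVZ samples and STR. In DG the coding Lrp8 transcript alone was at 17.1 FPKM, close to the 16.4 of Vldlr. The library sets of Lrp8 and Vldlr also divided in opposite directions, so region and set are mixed in this comparison.

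Dab1, the adaptor that both receptors share (chr4:104040165-104417447, plus strand, mm9), was at 25.4 and 36.3 FPKM in SVZ samples 1 and 2, 30.5 in OB, 47.3 in DG and 24.7 in STR. DG was the highest, and the SVZ samples lay on either side of OB. Its DG excess over STR was 0.91 ± 0.52, or 1.41 joined through the SVZ. The OB and SVZ levels differed by 0.01 ± 0.45, and OB minus STR changed sign with the scaling of the libraries, from 0.30 to -0.23. A transcript of 555 codons made up 82.2% to 92.3% of Dab1 FPKM, and a shorter one of 204 codons was highest in DG, at 8.41 FPKM. Of the 4 reelin pathway genes, Reln and Lrp8 were thus apart in OB, whereas Vldlr and Dab1 had no gap of 1 log2 unit in the values as deposited.

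**Figure D3:**
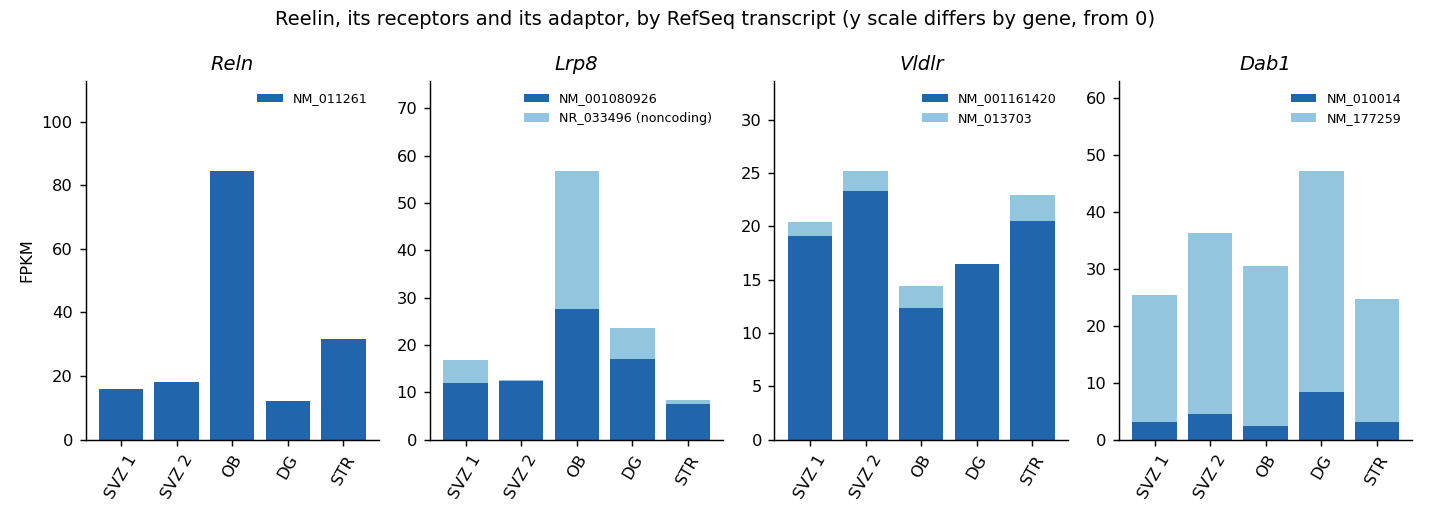
FPKM of Reln, Lrp8, Vldlr and Dab1 in the 5 libraries, stacked by RefSeq transcript, each panel from 0 on its own scale. The noncoding Lrp8 transcript was 29.3 FPKM of 56.8 in OB and 0.279 of 12.7 in SVZ sample 2.

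Prok2 encodes prokineticin 2, and its deposited locus is chr6:99661293-99682547 on the minus strand of mm9, an interval that also spans a catalogue transcript on the other strand. It was at 0.127 and 0.110 FPKM in the SVZ pair, 3.22 in OB, listed at 0 in DG and at 0.157 in STR. Only the OB library was above 1 FPKM, and the other 4 held 0.157 or less. OB exceeded STR by 1.87 ± 0.23 and the SVZ by 1.92 ± 0.20 on the log2 scale, values that are given as a description. Prok2 reached 1 FPKM only through OB, so it entered only the pairs in which it had to differ. The size also depends on the pseudocount: OB minus STR was 3.69 with 0.1 FPKM and 0.67 with 5 FPKM. No fold is given against DG. Nearly all of the OB level, 3.19 FPKM, was the transcript of 107 codons, and the longer one of 128 codons was at 0.0368.

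Prokr2 encodes the receptor for prokineticin 2, a G-protein-coupled receptor of SVZ and bulb neuroblasts, at chr2:132196065-132211183 on the minus strand of mm9. Its level was 3.22 and 3.83 FPKM in the SVZ samples, 7.93 in OB, 0.492 in DG and 1.02 in STR. As for Dcx, both SVZ samples and OB lay above DG and STR with no overlap. The SVZ exceeded STR by 1.16 ± 0.35 on the log2 scale (1.26 within the set) and DG by 1.60 ± 0.35 (1.50 within the set). At these low levels the sizes depend on the pseudocount: the SVZ excess ranged from 0.50 (with 5 FPKM) to 1.69 (with 0.1 FPKM) over STR and from 0.63 to 2.61 over DG. With a filter at 5 FPKM neither pair was tested. OB exceeded STR by 2.15 ± 0.40 and DG by 2.58 ± 0.40, both still over 1 log2 unit with the larger pseudocount. Its OB excess over the SVZ, 0.98 ± 0.35, fell just short of 1 log2 unit and was 1.08 within the set. Ligand and receptor were thus both highest in OB, but the receptor was also present in the SVZ, where the ligand was at 0.127 FPKM or less.

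The bases ahead of the Dcx, Prok2 and Prokr2 starts are shown because Dcx and Prokr2 had the same order of OB, SVZ and the other regions, and Prok2 encodes the ligand of Prokr2. Each is 250 bases on GRCm38.p6, minus strand: chrX:143933220-143933469 for Dcx, chr6:99726393-99726642 for Prok2 and chr2:132385448-132385697 for Prokr2. Capitals mark a homeodomain core bound by Dlx and similar factors (TAATTA), the E-box of clock and Myc factors (CACGTG) and the E-box of proneural factors (CAGCTG). These motifs were chosen with results of these data known.
Dcx promoter: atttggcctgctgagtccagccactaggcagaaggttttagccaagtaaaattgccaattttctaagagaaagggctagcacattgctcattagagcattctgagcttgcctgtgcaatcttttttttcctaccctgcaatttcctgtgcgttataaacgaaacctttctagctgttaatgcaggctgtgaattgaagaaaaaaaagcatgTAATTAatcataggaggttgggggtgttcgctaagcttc
Prok2 promoter: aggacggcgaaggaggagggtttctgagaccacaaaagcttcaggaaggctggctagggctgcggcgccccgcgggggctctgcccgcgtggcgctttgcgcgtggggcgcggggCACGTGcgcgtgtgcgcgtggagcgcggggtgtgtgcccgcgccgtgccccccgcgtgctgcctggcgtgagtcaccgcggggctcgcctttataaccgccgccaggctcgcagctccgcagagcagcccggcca
Prokr2 promoter: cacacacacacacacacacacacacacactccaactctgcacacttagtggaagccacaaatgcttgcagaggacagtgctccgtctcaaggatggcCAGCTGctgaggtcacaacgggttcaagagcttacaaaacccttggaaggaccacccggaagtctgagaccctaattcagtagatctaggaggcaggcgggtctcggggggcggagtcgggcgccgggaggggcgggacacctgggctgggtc
TAATTA began 39 bases before the Dcx start, CACGTG 135 before that of Prok2 and CAGCTG 153 before that of Prokr2. Among all 32851 promoters of this length, 4.84% held the motif TAATTA on either strand, 6.02% held the motif CACGTG and 13.0% held the motif CAGCTG. Promoters were matched for 9 of the 10 genes, 15 in all, of which 3 held the homeodomain core, 2 the clock E-box, 2 the proneural E-box and 4 the Sox core. The 3 with the homeodomain core were 2 overlapping windows of Dcx and 1 of Vldlr, a gene without an OB excess. CACGTG was also found 71 bases before the Reln start. The Prok2 stretch had 34 CpG dinucleotides and the Dcx stretch 3. A match of letters is a description of the window and shows no binding.

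Counting by pairs of regions, most of the 10 genes lay apart in the comparisons with OB. Of 10 tested, 6 (Dcx, Dclk2, Reln, Lrp8, Prok2 and Prokr2) were higher in OB than in STR by 1 log2 unit or more, against 30.6% of coding genes, and Dclk3 was lower, against 6.69%. The median over the 10 was 1.58, and over all coding genes 0.53. The same 6 genes were higher in OB than in DG, against 14.4% of coding genes, and Dclk3 was lower, against 5.28%, with medians of 1.38 and 0.25. Prok2 is among the 6 although it was listed at 0 in DG, and in the 3 pairs with OB it was tested only because of its OB level. Prokr2, at 0.492 FPKM in DG, reached 1 FPKM in OB against DG only through OB. In the SVZ against OB, Dclk3 was higher, against 7.18% of coding genes, and 5 (Dcx, Dclk2, Reln, Lrp8 and Prok2) were lower, against 14.8%. Their median was -1.04 and that of coding genes -0.24.

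Without OB few of the genes lay apart. In the SVZ against STR, Dcx and Prokr2 of 9 tested were higher, against 7% of coding genes, and 0 were lower, against 1.12%. In the SVZ against DG, Dcx, Dclk3 and Prokr2 of 9 were higher, against 10.6%, and 0 were lower, against 7.97%. Prokr2 reached 1 FPKM in that pair only through the SVZ. In DG against STR, Lrp8 was higher, against 17.5%, and Reln lower, against 8.28%, of 9 tested. Pairs that share a region share its libraries, so the 6 sets of values are not independent. By limma, 2, 7, 0, 4, 3 and 5 of the genes had an unadjusted p-value under 0.05 in SVZ minus STR, OB minus STR, DG minus STR, SVZ minus OB, SVZ minus DG and OB minus DG. Of all genes tested 4.75%, 14.1%, 11.9%, 14.0%, 14.1% and 12.6% did, in the same order, and Prok2 counts among the 10 genes' calls in each pair with OB. The smallest limma adjusted p-value of any of the 10 genes was 0.151, in SVZ minus OB.

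Scaling the libraries shifted the background of these counts. Of coding genes apart, 82.1% were higher in OB than in STR as deposited and 53.0% after median ratio scaling. That share went from 86.2% to 71.1% in SVZ minus STR, from 67.9% to 48.0% in DG minus STR, from 32.6% to 51.0% in SVZ minus OB, from 57.2% to 58.7% in SVZ minus DG and from 73.1% to 58.9% in OB minus DG. The median coding gene, at 0.53 in OB minus STR, moved to 0.05. After scaling, 5 of the genes were higher and 2 lower in OB than in STR, against 15.4% and 13.7% of coding genes. In OB against DG they were 5 and 1, against 10.2% and 7.14%, and in the SVZ against OB 1 and 3, against 10.01% and 9.62%. Prok2 is among the genes counted in each of these pairs with OB, where it was tested only because of its OB level. In the SVZ against STR 2 were higher and 1, Reln, was lower, against 5.13% and 2.08%. The counts of the genes in DG minus STR and SVZ minus DG stayed at 1 and 1 and at 3 and 0, against 11.3% and 12.3% and against 10.9% and 7.68%.

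**Figure D4:**
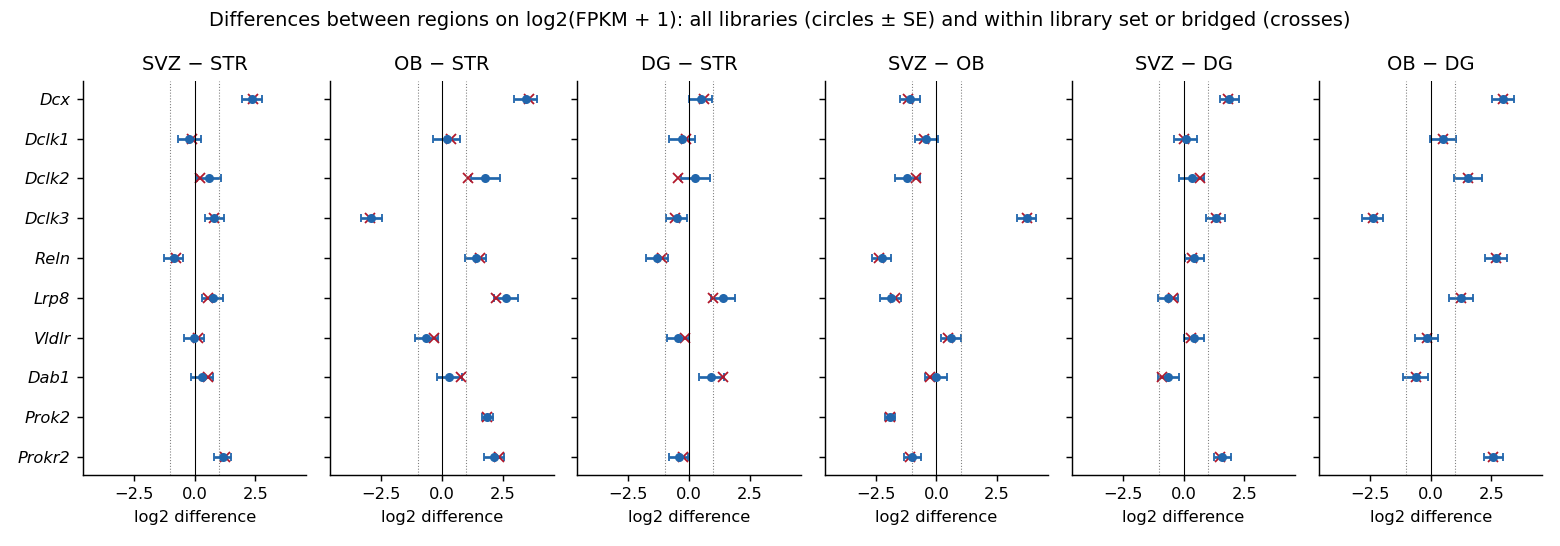
Log2 differences of FPKM + 1 for the 10 genes in 6 pairs of regions, with circles and SE bars from the 5 libraries and crosses from within a library set or joined through the SVZ samples; dotted lines mark 1 log2 unit. Dclk3 lay at -2.91 in OB minus STR and 3.72 in SVZ minus OB, opposite to Dcx at 3.45 and -1.09. Prok2 is not drawn where it was untested or where DG was listed at 0.

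Antisense transcription was looked for in the authors' long noncoding RNA catalogue. It placed 6 transcripts of 5 loci within the loci of 3 genes (Reln, Lrp8 and Prok2), all on the opposite strand, and 2 of the 6 reached 1 FPKM. One antisense locus at the Lrp8 gene was at 3.95 and 1.73 FPKM in SVZ samples 1 and 2, 0.615 in OB, listed at 0 in DG and at 4.06 in STR. In OB, where Lrp8 itself was highest, this antisense locus was thus below the SVZ samples and STR. Its 0 in DG is uncertain, since zeros were more frequent in that library. The Prok2 antisense transcript was at 0.456 FPKM in OB and at 0.0772 or less elsewhere. No source used here states whether the libraries kept strand, so sense and antisense reads over shared bases cannot be told apart.

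Partners of doublecortin on microtubules and dynein, 26 of 28 listed genes in the table, had the following counts. In OB against STR 7 were higher and 2 lower, beside 30.6% and 6.69% of coding genes, with a median of 0.39 against 0.53, so the higher share was near the background. Pafah1b3, a catalytic partner of Lis1, was at 18.8 and 5.0 FPKM in the SVZ pair, 39.0 in OB, 11.4 in DG and 2.00 in STR, with no overlap between the library sets. Kif5c, a kinesin heavy chain, was lowest in OB at 47.8 FPKM and between 136 and 214 elsewhere. The dynein intermediate chain Dync1i1 was at 207 FPKM in OB and between 19.2 and 51.1 elsewhere, and its library sets did not overlap either. In the SVZ against STR 3 of the 26 were higher and 0 lower, beside 7% and 1.12% of coding genes, with a median of 0.10 against 0.24. Of the other doublecortin-domain genes, 2 of 5 in the table reached 1 FPKM: Dcdc2a, a ciliary protein, was at 4.09 and 3.71 in the SVZ samples and between 1.15 and 2.43 elsewhere, and Dcdc2b was between 1.59 and 2.34.

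Downstream of reelin, 14 of 38 listed genes were higher and 2 lower in OB than in STR, beside 30.6% and 6.69% of coding genes, with a median of 0.65 against 0.53. Both shares were near the background. The receptor tyrosine kinase Ephb2 was highest in DG, at 14.9 FPKM, and between 0.926 and 5.20 elsewhere, with SVZ sample 2 and STR the lowest. Its ligand Efnb2 was the reverse, at 39.6 and 40.0 in the SVZ samples, 20.0 in OB, 4.05 in DG and 28.5 in STR. Nr2f2, a nuclear receptor, was at 16.9 in OB and at 2.40 or less elsewhere. Among 7 other ligands and modulators of the same receptors, Apoe was at 2050 and 776 FPKM in SVZ samples 1 and 2, 4630 in OB, 2312 in DG and 680 in STR, with no overlap between the library sets. Lpl, a lipase that binds the Vldlr receptor, was at 0.597 FPKM in OB and between 9.53 and 23.1 elsewhere, and like Dclk3 had its lowest value in OB.

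For the prokineticin axis, 13 of 15 listed genes were in the table. The paralogous ligand Prok1 and receptor Prokr1 stayed at 0.155 FPKM or less in every library, and outside OB Prok2 was about as low. In OB Prok2 was above Prok1 and Prokr1. Prokr2 was above both in every library, from 0.492 FPKM in DG to 7.93 in OB. The receptor Fgfr1, a partner in bulb formation, was at 30.2 FPKM in SVZ sample 1, 19.8 in SVZ sample 2, 61.0 in OB, 46.7 in DG and 13.1 in STR. It was highest in OB, as Prok2 and Prokr2 were, but DG came next, and its library sets did not overlap.

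Cues and adhesion genes of the rostral migratory stream, 32 in all, had 9 higher and 1 lower of 31 tested in the SVZ against STR, beside 7% and 1.12% of coding genes, with a median of 0.33 against 0.24. Among the higher, Cxcr4, Igfbpl1 and Slit2 were at 0.139, 0.503 and 0.968 FPKM in STR. They reached 1 FPKM in that pair only through the SVZ. Cd24a, a surface glycoprotein of neuroblasts and ependymal cells, was at 62.1 and 60.4 FPKM in SVZ samples 1 and 2, 21.6 in OB, 5.18 in DG and 3.27 in STR. Unlike Dcx it was higher in the SVZ than in OB. The polysialyltransferase St8sia2 was also highest in the SVZ, at 14.1 and 9.03, with 3.13 in OB, 1.18 in DG and 4.13 in STR. Slit1, a repellent, was at 133 in DG and at 14.3 or less elsewhere, and the receptor Robo3 at 20.6 in DG and at 3.33 or less. The library sets of Slit1 did not overlap, those of Robo3 did. In DG the cues thus had their own leading genes, while Dcx and Prokr2 were low.

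Genes with the profile most like each of the 10 were sought among 11429 other coding genes whose highest library reached 5 FPKM (11430 for Prok2), by the root mean square (RMS) difference of centred log2 values over the 5 libraries. Nearest to Dcx were Cartpt (RMS 0.22), a neuropeptide at 7.13 and 7.05 FPKM in the SVZ samples, 24.7 in OB, 1.35 in DG and 0.707 in STR, then Fos (0.31) and Cdca7l (0.37). For Dclk3 they were Sst (0.33), Pde8b (0.42) and Flrt3 (0.43). Sst, which encodes somatostatin, was at 306 and 227 FPKM in the SVZ pair, 29.9 in OB, 158 in DG and 242 in STR. The alpha-tubulin gene Tuba1c was nearest to Dclk2 (0.06), at 137, 90.6, 251, 90.4 and 69.6 FPKM in the same order, followed by Slc13a5 (0.06) and Gpr161 (0.07).

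Reln was followed by Ifi27l2a (RMS 0.12), Plcb4 (0.14) and Deptor (0.14), and Lrp8 by Epha3 (0.07), Htr3a (0.09) and Atf5 (0.10). Htr3a, the serotonin receptor subunit of a class of interneurons, was at 1.89 and 1.26 FPKM in SVZ samples 1 and 2, 9.41 in OB, 3.67 in DG and 0.696 in STR, with library sets that did not overlap. For Prokr2 the nearest were Chi3l1 (0.19), Cyp39a1 (0.24) and Dynlt1f (0.25), and for Prok2 Samsn1 (0.07), Lama4 (0.08) and Cthrc1 (0.08), all of them highest in OB. The flatter genes had close neighbours of little contrast: Cab39, Fam59a and Cp for Dclk1 (0.05 each), Ptrh2 (0.01), Cebpg (0.02) and 2700029M09Rik (0.03) for Vldlr, and Rnf128 (0.07), Phf20l1 (0.12) and Luc7l3 (0.13) for Dab1. With 5 libraries in 4 regions many genes can share a profile, and the 5 points share their libraries.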

How the data were processed

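Polyadenylated RNA of 5 microdissected samples was analysed from the deposited table, in which the authors gave FPKM for 37142 transcripts. The submitters' processing notes name CASAVA, TopHat 1.2.0, Cufflinks 1.0.0 and mm9, without role or order. The design text mentions paired-end and single reads without assigning them to samples. Here FPKM were summed by symbol over RefSeq transcripts, and catalogue transcripts by locus. Differences were fitted on log2(FPKM + 1) with limma 3.58.1 in R 4.3.3, with a trend, over the 5 libraries and 4 regions. Benjamini-Hochberg adjustment was over genes reaching 1 FPKM in either region compared. Simulated data without a difference between library sets served to check the size of planted log2 differences only. The SE and p-values were not checked in that way. Starts of Dclk1 transcripts came from GENCODE M21 (GRCm38), promoters from RefSeq (GRCm38.p6), and no coordinate was converted between builds. All 10 genes are named; of other lists, those with the largest difference in a pair at 5 FPKM or more, and the 3 nearest profiles. Dync1i1, Dcdc2a, Dcdc2b, Prok1, Prokr1 and single markers were named to describe their lists. The genes and lists were chosen with earlier results of these data known. The samples' separate animals are stated for the SVZ pair only, as biological replicates. Alternatives covered the pseudocount, filter, scaling, transcript sum, limma trend, library sets and each SVZ sample. Sequence of Dclk3's promoter was not matched. Some genes of the prokineticin list are not reported here.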

Additional observations from a re-analysis of the deposited data

How the results depend on the processing

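The 6 pairs gave 27 differences of 1 log2 unit or more among the 10 genes. Of these, 27 remained without SVZ replicate 1 and 26 without SVZ replicate 2, 27 with a pseudocount of 0.1, 21 with 5, 22 with a filter at 5 FPKM, 23 after median ratio scaling, 25 with the highest transcript in place of the sum, and 25 within library sets. With coding transcripts only, an alternative added after seeing the data, 26 remained. In SVZ minus STR the 2 genes apart became 1 with a pseudocount of 5 and 1 with a filter at 5 FPKM, where Prokr2 was lost. Both settings also ended the call of Prokr2 in SVZ minus DG and those of Prok2 in the 3 pairs with OB, and the pseudocount that of Dcx in SVZ minus OB. Genes past an adjusted p of 0.05 in limma, 0 in all pairs, became 91 in SVZ minus STR, 1045 in OB minus STR, 206 in DG minus STR, 891 in SVZ minus OB and 941 in OB minus DG with no filter on low values. They became 6 in DG minus STR, 64 in SVZ minus OB, 66 in SVZ minus DG and 22 in OB minus DG with a filter at 5 FPKM. Of the 10 genes only Prok2 was among them, with no filter, in the 3 pairs with OB (adjusted p from 0.0325 to 0.0334); it was near or at 0 in the other libraries, so nothing is drawn from that. No paired analysis was possible because OB, DG and STR have 1 sample each, so no groups share 2 replicate numbers. With 1 sample in 3 regions and no depth, the spread within those regions is unknown.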
